A study of Homo sapiens with 6 samples.

Results

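Antisense RNAs are transcripts made from the DNA strand opposite to a gene, and by convention they carry that gene's symbol followed by -AS and a number. The members described here are the 165 such RNAs that were expressed in T24 cells, of 1188 symbols of this form among the 58174 genes in the files, 692 of which were above 0 in any sample. Members were chosen by their RPKM, the read number of a gene scaled by its exonic length and by the mapped reads of the sample, which had to reach 0.5 in 3 or more of 6 samples. The partner is the gene whose symbol stands before -AS. It was in the files for 159 members, which share 157 partner genes since PTOV1-AS1 and PTOV1-AS2 have 1 partner and DLGAP1-AS1 and DLGAP1-AS2 have another. The members without a partner symbol were HOXB-AS1, HOXB-AS2, HOXB-AS3, HOXC-AS1, HOXD-AS2 and RPARP-AS1.

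Natural antisense RNAs are often non-coding, are mostly present at low levels, and in many cases start close to the start of their partner, where a shared promoter is transcribed in both directions. Some act on the partner in cis, through transcription of the locus, chromatin or base pairing with the partner's RNA, while others act elsewhere or have no known role. UBC9 is the enzyme that transfers SUMO, a small ubiquitin-like protein, to its targets, many of which are chromatin and transcription proteins.

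The T24 line, established from a human bladder cancer, was infected with pLKO.1 lentivirus carrying either 1 hairpin against UBC9 (shRNA-UBC9) or a scrambled control (shRNA-NC), and stable cells were selected with puromycin, so both groups carried a vector. PolyA RNA of 3 samples per group was sequenced. Nothing in the labels says that the 3 samples came from separate cultures, so p-values measure the spread between these samples, which may be technical.

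The RPKM values went in steps of 1 read, from which 28219032 to 36058872 mapped reads per sample were obtained, and the members took 0.135% to 0.153% of them. The epithelial keratin KRT7 was at 510 to 627 RPKM in shRNA-NC and 216 to 286 RPKM in shRNA-UBC9, KRT8 at 130 to 156 and 64.7 to 98.0 RPKM, KRT18 at 245 to 268 and 113 to 157 RPKM, and KRT19 at 35.0 to 56.6 and 19.3 to 29.6 RPKM. EPCAM was at 0.412 to 0.986 and 0.732 to 2.51 RPKM, and the urothelial regulator PPARG at 14.5 to 20.6 and 2.49 to 6.83 RPKM. The urothelial uroplakins UPK1A, UPK1B, UPK2 and UPK3A were at 0.125 RPKM or less and KRT5 and KRT20 at 0, with the epithelial cadherin CDH1 at 0.004 RPKM or less. Of the leukocyte and endothelial markers, PTPRC, CD3E, PECAM1 and VWF stayed at 0.185 RPKM or less, while CD68 was at 1.53 to 3.25 RPKM in shRNA-NC and 18.6 to 48.4 RPKM in shRNA-UBC9, and CDH5 at 2.58 to 3.15 and 0.241 to 1.02 RPKM. The part of these markers in the results was not tested, and in bulk RNA fewer cells of a type and less RNA per cell cannot be told apart.

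The antisense RNAs were lowly expressed. Their mean RPKM over the 6 samples had a median of 1.24 and ranged from 0.426 to 87.7, against a median of 6.16 over the 12428 tested genes and 5.5 over the partners. A member had a median of 613 reads over all 6 samples, against 6194 for all tested genes. In 125 of 159 pairs the partner had the higher mean RPKM, and the partner's level was a median of 4.85 times that of the antisense RNA.

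The highest member was LRRC75A-AS1, a transcript that current annotation names SNHG29 as a host of small nucleolar RNAs, with a mean of 87.7 RPKM, while its partner LRRC75A reached at most 0.977 RPKM. FGD5-AS1 followed with 28.3 RPKM, although FGD5, a guanine nucleotide exchange factor gene, was at 0.003 RPKM or less in every sample. AGAP2-AS1 was at 15.2 RPKM, NCBP2-AS2 at 12.8 RPKM and DLGAP1-AS2 at 8.57 RPKM. OIP5-AS1, a conserved long non-coding RNA, was at 7.4 RPKM, THAP9-AS1 at 7.09 RPKM and ARRDC1-AS1 at 6.49 RPKM. Of these 8 RNAs, DLGAP1-AS2 rose in shRNA-UBC9, LRRC75A-AS1 and ARRDC1-AS1 fell, and 5 did not pass the test.

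**Figure D1:**
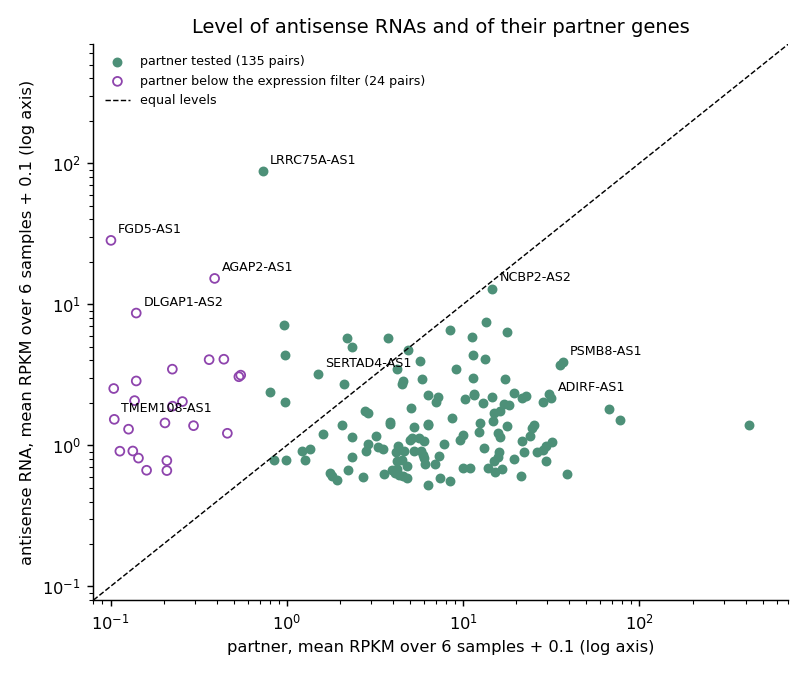
Mean RPKM + 0.1 over 6 samples of each antisense RNA (vertical, log axis) against that of its partner gene (horizontal, log axis) for 159 pairs. Filled points are the 135 pairs with a tested partner, open points the 24 pairs whose partner was below the expression filter. Most points lie below the dashed line of equal levels, and LRRC75A-AS1, FGD5-AS1 and AGAP2-AS1 lie far above it.

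In the GENCODE 44 annotation of GRCh38, 163 members were found, 128 under the symbol of the files and 35 under a RefSeq synonym, while ASMTL-AS1 and SVIL-AS1 were not placed. Of the 163, 157 are annotated as long non-coding RNA, and 26 are now named divergent transcripts (-DT). MMP24-AS1, NCBP2-AS2 and TOPORS-AS1 are now annotated as the protein-coding genes MMP24OS, NCBP2AS2 and SMIM27. The symbol TNRC6C-AS1 is now a synonym of TMC6, a protein-coding gene that the files also list on its own, so its position is uncertain and is not given. In the counts of arrangements that follow it stands at the place of TMC6.

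Among 157 pairs that could be placed, 62 overlapped head to head, 27 were head to head without overlap, 28 overlapped tail to tail, 28 had the antisense RNA inside the partner and 12 had the partner inside the antisense RNA. The start sites of 89 pairs were within 1000 bases of each other. In 109 pairs exons of both genes overlapped, in 27 of them over at least 20% of the antisense RNA's exonic length. Whether reads were counted by strand is not stated in the sources used here, so reads from overlapping exons cannot be assigned to 1 strand with certainty. Overlap with the partner is given below as a share of the antisense RNA's exonic length in the GENCODE annotation, for most of the pairs described. That length equalled the exonic length behind the RPKM values for 39 of 163 members (23.9%). For the other members, the presence and share of overlap may differ from those of the exons that were counted. This also bears on the split of pairs by exonic overlap below, and it was not tested.

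Promoters of 5 pairs whose RefSeq starts lie head to head are shown, because these pairs cover the kinds of behaviour described below. PSMB8-AS1 and PSMB8 both rose, OSER1-AS1 and OSER1 both fell, TRAM2-AS1 rose while TRAM2 fell, RAB30 fell without RAB30-AS1, and SCAMP1-AS1 rose without SCAMP1. Each sequence is the RefSeq window of 250 bases before to 50 bases after the antisense start (GRCh38.p14), read 5′ to 3′ on the antisense strand, with the bases between the antisense start and the partner's start in capitals.
PSMB8-AS1: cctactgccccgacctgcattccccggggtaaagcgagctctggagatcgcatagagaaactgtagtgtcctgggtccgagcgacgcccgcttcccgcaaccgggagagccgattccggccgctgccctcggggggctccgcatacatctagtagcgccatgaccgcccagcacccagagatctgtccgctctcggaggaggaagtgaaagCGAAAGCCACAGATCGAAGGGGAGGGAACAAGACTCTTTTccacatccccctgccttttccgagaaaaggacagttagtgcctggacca
OSER1-AS1: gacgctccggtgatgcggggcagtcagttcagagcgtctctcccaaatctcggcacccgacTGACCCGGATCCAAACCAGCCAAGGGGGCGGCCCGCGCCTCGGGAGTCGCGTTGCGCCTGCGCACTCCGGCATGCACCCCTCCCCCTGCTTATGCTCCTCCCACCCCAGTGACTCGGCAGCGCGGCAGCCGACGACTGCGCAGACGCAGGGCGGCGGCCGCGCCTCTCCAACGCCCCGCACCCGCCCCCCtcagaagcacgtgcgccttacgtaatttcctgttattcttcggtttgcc
TRAM2-AS1: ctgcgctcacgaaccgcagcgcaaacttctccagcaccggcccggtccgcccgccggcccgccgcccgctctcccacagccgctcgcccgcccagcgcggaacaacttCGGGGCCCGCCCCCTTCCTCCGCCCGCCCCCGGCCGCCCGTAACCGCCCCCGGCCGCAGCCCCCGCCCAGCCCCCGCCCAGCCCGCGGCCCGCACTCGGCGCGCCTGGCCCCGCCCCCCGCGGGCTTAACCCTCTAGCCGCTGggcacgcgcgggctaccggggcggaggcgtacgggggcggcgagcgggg
RAB30-AS1: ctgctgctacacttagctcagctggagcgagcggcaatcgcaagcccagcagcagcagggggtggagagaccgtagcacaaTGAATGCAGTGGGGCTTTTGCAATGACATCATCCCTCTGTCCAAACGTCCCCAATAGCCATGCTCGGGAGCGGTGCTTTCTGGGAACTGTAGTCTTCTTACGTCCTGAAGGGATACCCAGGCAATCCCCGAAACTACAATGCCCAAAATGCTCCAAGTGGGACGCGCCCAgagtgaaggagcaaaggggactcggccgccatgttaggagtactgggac
SCAMP1-AS1: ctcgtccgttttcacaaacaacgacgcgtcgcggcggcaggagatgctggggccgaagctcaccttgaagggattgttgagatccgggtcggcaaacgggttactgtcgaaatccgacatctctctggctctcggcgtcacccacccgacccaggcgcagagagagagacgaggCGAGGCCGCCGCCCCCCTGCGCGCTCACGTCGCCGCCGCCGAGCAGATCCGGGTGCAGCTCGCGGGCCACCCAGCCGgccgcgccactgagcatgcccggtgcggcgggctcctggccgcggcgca
The windows are chr6:32843836-32844135 (plus strand) for PSMB8-AS1, chr20:44210710-44211009 (plus) for OSER1-AS1, chr6:52576952-52577251 (plus) for TRAM2-AS1, chr11:83071816-83072115 (plus) for RAB30-AS1 and chr5:78360492-78360791 (minus) for SCAMP1-AS1. In RefSeq the starts of antisense RNA and partner are 39, 189, 142, 169 and 76 bases apart in that order. The GC content of the windows was 60.7%, 68.3%, 82.0%, 56.7% and 69.7%.

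Motifs were searched on both strands of the windows of 135 members that have one. The core of the interferon-stimulated response element, GAAANNGAAA, was found in the PSMB8-AS1 window as GAAAGCGAAA, starting 44 bases before the antisense start. That motif was in 3.57% of all 35116 RefSeq promoter windows and in 3 of 173 windows of members. The NF-kB motif GGGNNTTTCC was in 1.91% of all windows and in 4 windows of members, and the AP-1 motif TGANTCA in 7.71% of all windows and in 10 windows of members. The windows shown held no other match to these motifs. A match says only that these letters are present.

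Between shRNA-UBC9 and shRNA-NC, 23 of the 165 antisense RNAs rose and 22 fell (adjusted p below 0.05, limma on log2(RPKM + 0.1), Benjamini-Hochberg adjustment over 12428 genes). The 45 members called were 27.3% of all members, while 36.8% of all tested genes were called, 18.8% up and 18% down. This lower share of members depends on the fit. Without the intensity trend in limma, 60 members (36.4%) and 34.9% of all tested genes were called. The 13 members that also passed a |log2 fold change| of 1, 6 up and 7 down, were 7.88% of members, against 7.89% of all tested genes. The 3 values of each group did not overlap for 74 members (44.8%) and for 51.1% of all tested genes. The median log2 fold change was 0.001 over members and 0.005 over all tested genes. Without shRNA-UBC9 replicate 2, 29 members were called (17.6%), and 26.1% of all tested genes.

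Members with a mean RPKM below 2 were called in 35 of 116 cases (30.2%), close to the 30.6% of all 2642 tested genes in that range. Among members at 2 to below 10 RPKM, 9 of 45 (20%) were called, against 36.7% of 5416 tested genes. The median SE of the log2 fold change was 0.187 for members and 0.119 for all tested genes.

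The filter itself could favour a difference for RNAs that passed it in 1 group alone. Such an RNA reached 0.5 RPKM in all 3 samples of that group and in none of the other, so its groups could not overlap. This holds for BMPR1B-AS1, HAS2-AS1, HOXC-AS1, LMO7-AS1 and ZFHX4-AS1 among the 13 members past both thresholds. CIRBP-AS1, HOXC-AS1, KCTD21-AS1, LMO7-AS1, STARD4-AS1 and ZFHX4-AS1 passed only through shRNA-NC, and 4 of these 6 were called, all lower in shRNA-UBC9. BMPR1B-AS1, HAS2-AS1, NDUFA6-AS1, RBM26-AS1, TMEM9B-AS1, ZNF503-AS2 and ZNF561-AS1 passed only through shRNA-UBC9, and 3 of these 7 were called, all higher. Of these calls, that of KCTD21-AS1 (adjusted p = 0.027) was lost without shRNA-NC replicate 1 or 2 or shRNA-UBC9 replicate 2 or 3 (0.0648 to 0.0921), and that of ZNF503-AS2 (0.0103) without shRNA-UBC9 replicate 2 (0.0519). Of the other 152 members, 38 (25.0%) were called. Nearest the threshold, the third highest value was 0.503 RPKM for TMCC1-AS1 and 0.506 RPKM for STARD4-AS1, which were members, and 0.4997 RPKM for DNAJC3-AS1 and 0.486 RPKM for NPPA-AS1, which were not.

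**Figure D2:**
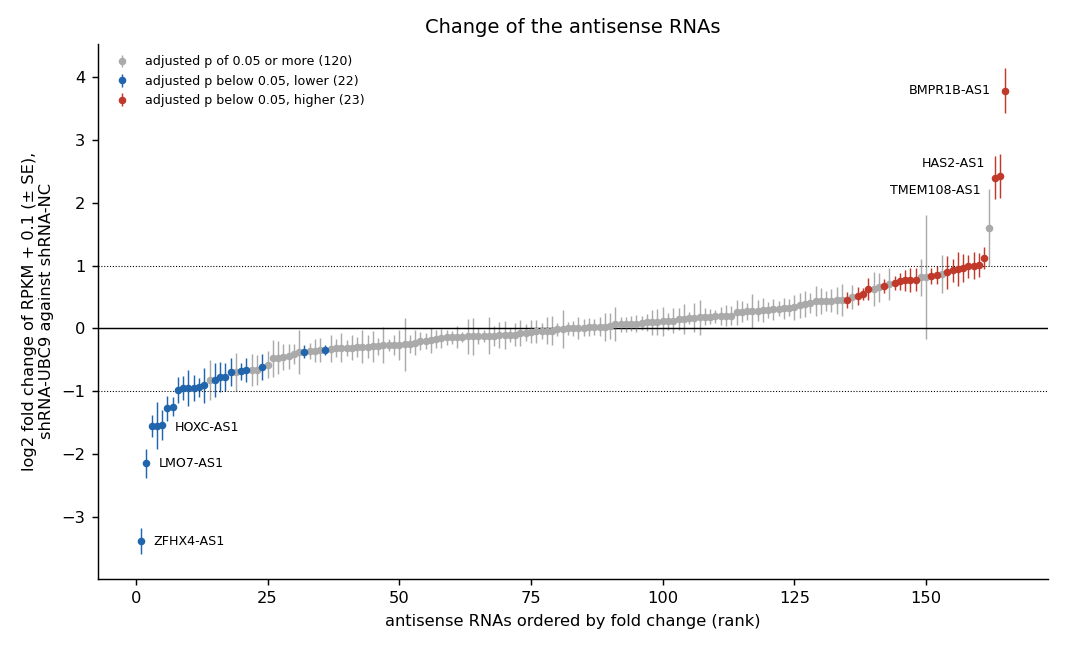
The log2 fold change of RPKM + 0.1 between shRNA-UBC9 and shRNA-NC for each of the 165 antisense RNAs (points, ± SE), ordered from lowest to highest, with dotted lines at -1 and 1. Blue points (22) fell and red points (23) rose at an adjusted p below 0.05 (limma), and most members lie between the dotted lines.

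The largest decrease was that of ZFHX4-AS1, which overlaps ZFHX4, a zinc finger homeobox transcription factor gene, head to head. It was at 1.8, 2.33 and 1.79 RPKM in shRNA-NC and at 0.123, 0.0756 and 0.0945 RPKM in shRNA-UBC9, which gives a log2 fold change of -3.39 ± 0.21 (SE, adjusted p = 3.22e-05). ZFHX4-AS1 passed the filter only through shRNA-NC, so its groups could not overlap. It had 6 to 10 reads in shRNA-UBC9 against 121 to 182 in shRNA-NC. ZFHX4 itself fell from 7.79, 8.26 and 7.58 RPKM to 2.95, 3.15 and 3.31 RPKM, by 1.30 ± 0.09 (SE) on the log2 scale (adjusted p = 5.34e-05). The antisense RNA thus fell by more than its partner, with a log2 ratio of the pair that dropped by 2.09 ± 0.16 (SE), and the exons of the pair do not overlap. As for every single pair here, the exact two-sided permutation test of the ratio could not give a p below 0.1, the value found for this pair.

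LMO7-AS1 (chr13:75604700-75635994, minus strand) lies head to head with LMO7, which encodes a LIM domain protein of cell junctions. It was at 0.961, 1.31 and 1.54 RPKM in shRNA-NC and at 0.187, 0.191 and 0.239 RPKM in shRNA-UBC9, or 17 to 31 reads against 4 in each. LMO7-AS1 passed the filter only through shRNA-NC, so its groups could not overlap, and its log2 fold change was -2.15 ± 0.23 (SE, adjusted p = 0.000392). Exons overlap over 2.9% of LMO7-AS1, or 8.9% with those of UCHL3 included. LMO7 fell from 10.05, 10.7 and 10.7 RPKM to 3.08, 4.56 and 3.9 RPKM, by 1.44 ± 0.14 (SE) on the log2 scale (adjusted p = 0.000246).

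SERTAD4-AS1 (chr1:210231456-210234047, minus) shares its start region with SERTAD4, a SERTA domain gene. It was at 4.4, 4.89 and 4.68 RPKM in shRNA-NC and at 1.52, 1.16 and 1.98 RPKM in shRNA-UBC9, which gives a log2 fold change of -1.56 ± 0.17 (SE, adjusted p = 0.000482). Here the partner fell further than the antisense RNA. SERTAD4 went from 2.32, 2.67 and 2.65 RPKM to 0.238, 0.213 and 0.279 RPKM, by 2.95 ± 0.16 (SE) on the log2 scale (adjusted p = 1.69e-05). The log2 ratio of antisense RNA to partner was 0.80 to 0.90 in shRNA-NC and 2.01 to 2.46 in shRNA-UBC9, without overlap of the groups. SERTAD4-AS1 was the more abundant of the pair in all 6 samples, and 16.2% of its exonic length overlaps SERTAD4.

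SOCS2-AS1 (chr12:93542022-93571768, minus) lies head to head with SOCS2, a feedback inhibitor of cytokine receptor signalling. It was at 1.47, 1.38 and 1.44 RPKM in shRNA-NC and at 0.596, 0.483 and 0.557 RPKM in shRNA-UBC9. The spread within each group was small against the difference, and the log2 fold change was -1.25 ± 0.15 (SE, adjusted p = 0.000693). The exonic overlap is 6.2%. SOCS2 fell from 7.02, 7.7 and 6.86 RPKM to 2.63, 2.46 and 2.51 RPKM, by 1.47 ± 0.09 (SE) on the log2 scale (adjusted p = 3.06e-05).

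TNRC6C-AS1 fell from 1.17, 1.18 and 1.34 RPKM to 0.513, 0.329 and 0.533 RPKM, a log2 fold change of -1.27 ± 0.20 (SE, adjusted p = 0.00228). TNRC6C, whose protein acts in microRNA silencing, fell by 0.72 ± 0.16 (SE) on the log2 scale (adjusted p = 0.00979). The groups did not overlap for either gene of the pair.

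Antisense RNAs of the HOX clusters, which hold the transcription factor genes of body axis patterning, have no single partner symbol. HOXB-AS2 (chr17:48557262-48560333, plus), opposite to HOXB3, was at 1.31, 0.854 and 1.29 RPKM in shRNA-NC and at 0.656, 0.269 and 0.168 RPKM in shRNA-UBC9. All 3 values were below the controls, with a log2 fold change of -1.55 ± 0.37 (SE, adjusted p = 0.0137), and the adjusted p was 0.0536 without shRNA-NC replicate 1 and 0.0528 without replicate 3. HOXC-AS1 (chr12:53999022-54000010, minus), opposite to HOXC6 and HOXC9, fell from 1.08, 0.927 and 0.749 RPKM to 0.281, 0.288 and 0.18 RPKM, on 15 to 19 against 3 to 6 reads, a log2 fold change of -1.54 ± 0.24 (SE, adjusted p = 0.00196). HOXC-AS1 passed the filter only through shRNA-NC, so its groups could not overlap. HOXB-AS3, opposite to HOXB3, HOXB4, HOXB5 and HOXB6, was lower too, at 2.74 ± 0.642 against 1.57 ± 0.463 RPKM (SD, n = 3 each), with an adjusted p of 0.0332 from limma that ranged from 0.0546 to 0.118 without shRNA-NC replicate 1, shRNA-NC replicate 3, shRNA-UBC9 replicate 1 or shRNA-UBC9 replicate 2. HOXD-AS2 was higher, at 1.48 ± 0.0965 against 2.19 ± 0.365 RPKM (SD, n = 3 each), with an adjusted p of 0.024 from limma that ranged from 0.069 to 0.0764 without shRNA-NC replicate 1 or 3 or shRNA-UBC9 replicate 2 or 3. Exons of coding genes overlap 30.1% of HOXB-AS3 and 49.3% of HOXD-AS2, but none of HOXB-AS2 or HOXC-AS1. HOXB-AS1 was at 0.595 ± 0.106 and 0.639 ± 0.0717 RPKM (SD, n = 3 each), with an adjusted p of 0.738 from limma.

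The largest increase was that of BMPR1B-AS1 (chr4:94743668-94757681, minus), now named BMPR1B-DT, which starts head to head with the gene of a type I receptor for bone morphogenetic proteins. It had 0 reads in all 3 shRNA-NC samples and 15, 22 and 30 reads in shRNA-UBC9, or 0.814, 1.22 and 2.08 RPKM. BMPR1B-AS1 passed the filter only through shRNA-UBC9, so its groups could not overlap. Taken over the group, 3 reads would be 0.0597 RPKM in shRNA-NC. Its pooled level in shRNA-UBC9, 1.32 RPKM on 67 reads, was 22.1 times that limit. The limit covers the counting error behind the 0 alone, not that of the 67 reads or the spread between samples. Its fitted log2 fold change depends on the pseudocount (adjusted p = 0.000238). BMPR1B was at 0.595, 0.348 and 0.445 RPKM in shRNA-NC and at 0.589, 1.2 and 1.31 RPKM in shRNA-UBC9, where replicate 1 lay within the controls. Its log2 fold change was 0.97 ± 0.31 (SE, adjusted p = 0.0392), and the adjusted p ranged from 0.0976 to 0.124 without shRNA-NC replicate 2 or 3 or shRNA-UBC9 replicate 2 or 3.

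HAS2-AS1 overlaps the start of HAS2, which encodes a hyaluronan synthase. It was at 0.131, 0.305 and 0.477 RPKM in shRNA-NC and at 2.64, 1.5 and 1.82 RPKM in shRNA-UBC9, on 7 to 29 reads against 92 to 171. HAS2-AS1 passed the filter only through shRNA-UBC9, so its groups could not overlap, and its log2 fold change was 2.43 ± 0.35 (SE, adjusted p = 0.00141). HAS2 rose from 2.2, 1.97 and 3.95 RPKM to 27.6, 13.8 and 24.1 RPKM, by 2.97 ± 0.31 on the log2 scale (SE, adjusted p = 0.000341). The exonic overlap is 4.4% of HAS2-AS1. Among the shRNA-UBC9 samples, replicate 1 was highest and replicate 2 lowest for both genes.

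TMEM108-AS1 (chr3:133245603-133257207, minus) lies inside TMEM108, a transmembrane protein gene that was at 0.014 RPKM or less in every sample. The antisense RNA was at 0.439, 0.2 and 0.506 RPKM in shRNA-NC and at 3.72, 1.7 and 2.01 RPKM in shRNA-UBC9. It rose in all 3 samples without a measurable partner, with a log2 fold change of 2.41 ± 0.35 (SE, adjusted p = 0.00143). ATP6V1B1-AS1 (chr2:70941817-70948610, minus) lies inside ATP6V1B1, the gene of a proton pump subunit, and rose from 1.0, 0.684 and 0.752 RPKM to 1.58, 2.04 and 1.99 RPKM, a log2 fold change of 1.12 ± 0.18 (SE, adjusted p = 0.00222). ATP6V1B1 was below the expression filter, at 0.174 RPKM or less, and was not tested. Exons of this pair do not overlap, but 78.8% of the exonic length of ATP6V1B1-AS1 overlaps another coding gene model, which has no symbol in the annotation.

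SLCO4A1-AS1 (chr20:62663019-62666724, minus) rose from 1.11, 0.998 and 1.16 RPKM to 2.84, 2.5 and 1.71 RPKM, a log2 fold change of 1.02 ± 0.19 (SE, adjusted p = 0.00425). SLCO4A1, an organic anion transporter gene, rose from 33.8, 35.3 and 32.2 RPKM to 126, 86.7 and 86.2 RPKM, by 1.54 ± 0.15 on the log2 scale (SE, adjusted p = 0.000252). For both genes every shRNA-UBC9 sample was above every control, and 22.6% of the exonic length of SLCO4A1-AS1 overlaps SLCO4A1. EML2-AS1 (chr19:45641494-45642840, plus) rose from 1.06, 0.959 and 0.574 RPKM to 1.89, 1.68 and 1.78 RPKM, a log2 fold change of 1.0 ± 0.21 (SE, adjusted p = 0.00751). EML2, a microtubule-associated protein gene, rose by 0.95 ± 0.09 (SE, adjusted p = 0.000218), but 95% of the exonic length of EML2-AS1 overlaps exons of EML2, so their reads cannot be told apart.

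**Figure D3:**
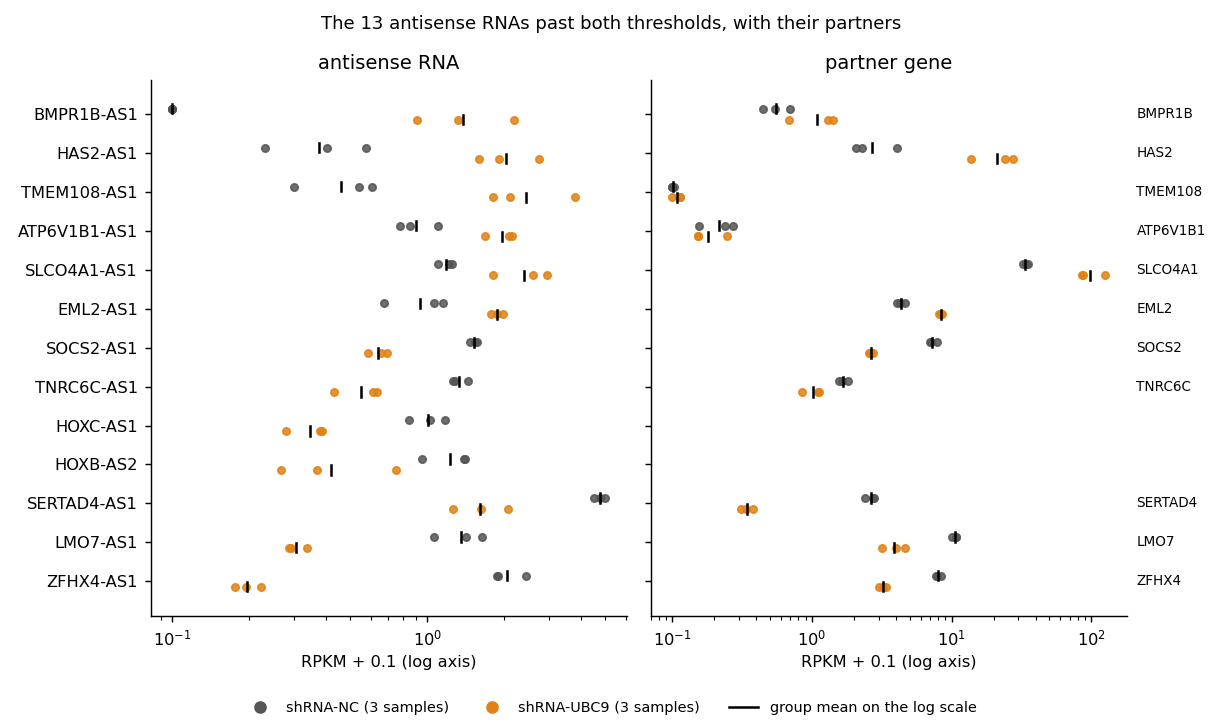
RPKM + 0.1 (log axes) in each sample for the 13 antisense RNAs past both thresholds (left) and for their partner genes (right), with 3 shRNA-NC samples in grey, 3 shRNA-UBC9 samples in orange and black ticks at the group means on the log scale. The groups of every antisense RNA are apart, which the filter fixed for BMPR1B-AS1, HAS2-AS1, HOXC-AS1, LMO7-AS1 and ZFHX4-AS1. The partners TMEM108 and ATP6V1B1 are near 0.1, and HOXC-AS1 and HOXB-AS2 have no partner symbol.

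In 135 pairs both genes were tested. The antisense RNA and the partner were both called in 19 pairs, of which 10 fell together, 8 rose together and 1 moved in opposite directions. The antisense RNA alone was called in 13 pairs, the partner alone in 28 and neither in 75. Of the 134 tested partners, 22 rose and 25 fell (35.1% called, against the 36.8% of all tested genes), and 11 also passed a |log2 fold change| of 1. Without shRNA-NC replicate 3, 29 partners (21.6%) and 24.4% of all tested genes were called, and without shRNA-UBC9 replicate 2, 31 partners (23.1%) and 26.1% of all tested genes.

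The changes of both genes had the same sign in 78 of 135 pairs (57.8%). Across pairs, the log2 fold changes had a Pearson r of 0.644 and a Spearman rho of 0.471, given as a description without a p since pairs share the 6 samples and their normalization and may share reads. Without pairs whose antisense RNA passed the filter through 1 group alone, r was 0.583 and rho 0.416 (n = 123), with both genes called in 15 pairs. Without pairs whose antisense RNA changed by over 2 on the log2 scale, r was 0.567 (n = 131). For the 39 pairs without exonic overlap r was 0.602 and rho 0.445, with the same sign in 24. For the 94 with overlap r was 0.717 and rho 0.474, with the same sign in 53, and the difference was not tested. For the 86 pairs with start sites within 1000 bases r was 0.668, and for the 47 pairs with more distant starts 0.623. Tail-to-tail pairs had an r of 0.289 (n = 23), or 0.104 without TNRC6C-AS1, whose place is uncertain, and this was not tested against the others.

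**Figure D4:**
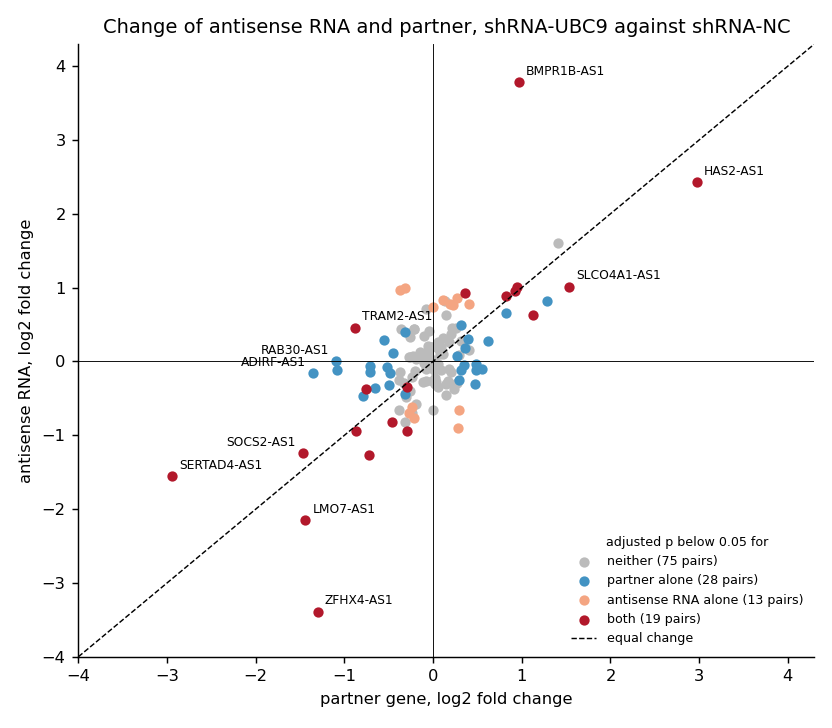
The log2 fold change of the antisense RNA (vertical) against that of its partner (horizontal) for the 135 pairs in which both were tested, coloured by which gene passed an adjusted p of 0.05 (limma). Of the 19 red pairs, in which both passed, 18 lie at the lower left or upper right, and TRAM2-AS1 lies at the upper left.

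Among the pairs that fell together, TMPO-AS1 (chr12:98512973-98516422, minus) was at 2.7, 2.57 and 2.34 RPKM in shRNA-NC and at 1.04, 1.31 and 1.51 RPKM in shRNA-UBC9, which gives a log2 fold change of -0.94 ± 0.15 (SE, adjusted p = 0.00234). TMPO, which encodes lamina-associated polypeptides of the nuclear envelope, fell by 0.88 ± 0.13 (SE, adjusted p = 0.00152), and the exonic overlap is 19.2%. OSER1-AS1, whose promoter is shown above, was at 1.12, 1.03 and 1.22 RPKM against 0.723, 0.441 and 0.47 RPKM, a log2 fold change of -0.95 ± 0.21 (SE, adjusted p = 0.0088). OSER1, named for its response to oxidative stress, was at 31.0 ± 1.2 against 25.3 ± 1.3 RPKM (SD, n = 3 each), and its log2 fold change was -0.29 ± 0.08 (SE, adjusted p = 0.0241). That adjusted p ranged from 0.0685 to 0.0848 without shRNA-NC replicate 1 or 3 or shRNA-UBC9 replicate 2 or 3. The exons of this pair do not overlap, and the groups did not overlap for either gene. LRRC75A-AS1, ARRDC1-AS1 and ZNF436-AS1 were lower together with their partners as well, by 0.34 to 0.82 on the log2 scale. These 3 calls were lost without shRNA-NC replicate 3 (adjusted p = 0.109 for LRRC75A-AS1, 0.0607 for ARRDC1-AS1 and 0.128 for ZNF436-AS1) and without shRNA-UBC9 replicate 2 (0.0864, 0.0549 and 0.134 in that order). The groups of ZNF436-AS1 overlapped, and its exonic overlap with ZNF436 is 16.2%. The exonic overlap is 1.0% of ARRDC1-AS1 and 5.6% of LRRC75A-AS1, or 500 bases. LRRC75A-AS1 was at a mean of 87.7 RPKM and LRRC75A at 0.629 RPKM. As the strand setting is not stated, reads in their shared exons cannot be assigned to 1 gene, and the share of such reads in LRRC75A was not tested. LRRC75A-AS1 and ZNF436-AS1 were not called without shRNA-NC replicate 1 either (0.0924 and 0.148), LRRC75A-AS1 not without shRNA-UBC9 replicate 3 (0.0599) and ZNF436-AS1 not without shRNA-UBC9 replicate 1 (0.0924). Of their partners, LRRC75A had an adjusted p of 0.044, which was 0.058 to 0.129 without shRNA-NC replicate 2 or 3 or any one shRNA-UBC9 sample. ARRDC1 had an adjusted p of 0.0274, which was 0.0681 to 0.0803 without shRNA-NC replicate 1 or 2 or shRNA-UBC9 replicate 2 or 3. ZNF436 had one of 0.0391, which was 0.0832 to 0.13 without shRNA-NC replicate 2 or 3 or shRNA-UBC9 replicate 2 or 3.

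Among the pairs that rose together, PSMB8-AS1 (chr6:32844078-32846500, plus) starts beside PSMB8, an interferon-inducible subunit of the immunoproteasome. It was at 1.56, 3.39 and 2.83 RPKM in shRNA-NC and at 4.43, 6.17 and 4.21 RPKM in shRNA-UBC9, which gives a log2 fold change of 0.95 ± 0.27 (SE, adjusted p = 0.0251) that had an adjusted p of 0.0781 without shRNA-UBC9 replicate 2. PSMB8 rose from 21.6, 32.2 and 22.1 RPKM to 41.1, 58.3 and 43.9 RPKM, by 0.92 ± 0.18 (SE, adjusted p = 0.00585). In both groups replicate 2 was highest for both genes. Of the exonic length of PSMB8-AS1, 24.8% overlaps PSMB8, and 54.0% overlaps exons of PSMB8, PSMB9 or TAP1. PSMB8 was the only partner on a list of interferon-stimulated genes, and no partner was on a list of inflammatory genes.

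RASSF8 and RASSF8-AS1, RGMB and RGMB-AS1, and ELOA and ELOA-AS1 were also higher together. The exonic overlap is 2.2% of RASSF8-AS1, 15.4% of RGMB-AS1 and 23.7% of ELOA-AS1. RASSF8, of the Ras association domain family, rose from 11.4 ± 1.96 to 24.8 ± 1.42 RPKM (SD, n = 3 each), by 1.12 ± 0.13 on the log2 scale (SE, adjusted p = 0.000516). RASSF8-AS1 was at 1.25, 1.39 and 1.59 RPKM against 2.62, 2.4 and 1.74 RPKM, a log2 fold change of 0.63 ± 0.17 (SE, adjusted p = 0.0225), and its adjusted p ranged from 0.0537 to 0.0745 without shRNA-NC replicate 1 or 2 or shRNA-UBC9 replicate 1 or 2. RGMB, a co-receptor of bone morphogenetic proteins, and RGMB-AS1 differed by 0.82 and 0.89 on the log2 scale, and the adjusted p of RGMB-AS1 ranged from 0.0536 to 0.0957 without shRNA-NC replicate 1 or shRNA-UBC9 replicate 2 or 3. ELOA-AS1 rose by 0.93 ± 0.18 (SE, adjusted p = 0.00537) and ELOA, of the elongin complex, by 0.36 ± 0.09 (SE, adjusted p = 0.0189), which was 0.0583 to 0.0785 without shRNA-NC replicate 1 or 3 or shRNA-UBC9 replicate 2.

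TRAM2-AS1 (chr6:52576787-52643058, plus) and TRAM2 moved in opposite directions. TRAM2, which encodes a protein of the endoplasmic reticulum translocon, fell from 19.1, 19.4 and 19.4 RPKM to 10.9, 9.52 and 11.0 RPKM, by 0.88 ± 0.09 (SE) on the log2 scale (adjusted p = 0.000294). TRAM2-AS1 was higher, at 1.36, 1.21 and 1.39 RPKM in shRNA-NC and 2.02, 1.82 and 1.73 RPKM in shRNA-UBC9, which gives a log2 fold change of 0.46 ± 0.13 (SE, adjusted p = 0.0226). The groups overlapped for neither gene, and exons overlap over 1.0% of the antisense RNA. The log2 ratio of antisense RNA to partner was 1.34 ± 0.10 higher (SE) in shRNA-UBC9 (exact two-sided permutation test, p = 0.1, the smallest that 3 against 3 can give). The call of TRAM2-AS1 was lost without shRNA-NC replicate 2 or 3 or shRNA-UBC9 replicate 1 or 2, where its adjusted p was 0.0521 to 0.065.

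Several partners changed beside antisense RNAs that did not pass the test, 4 of them by over 1 on the log2 scale (ADIRF, RAB30, FOXD1 and FOXN3). ADIRF, named for a role in fat cell formation, fell from 42.5, 39.1 and 53.2 RPKM to 14.8, 19.1 and 18.7 RPKM, by 1.35 ± 0.14 (SE) on the log2 scale (adjusted p = 0.00037). ADIRF-AS1 was at 2.35, 1.77 and 2.46 RPKM against 1.83, 1.86 and 2.14 RPKM, so its groups overlapped, and 11.8% of its exonic length overlaps ADIRF (log2 fold change -0.16 ± 0.15 SE, adjusted p = 0.434). RAB30, a Golgi small GTPase gene, fell from 1.12, 1.23 and 1.35 RPKM to 0.614, 0.415 and 0.557 RPKM, by 1.10 ± 0.19 (SE) on the log2 scale (adjusted p = 0.00297). RAB30-AS1 was at 1.93 ± 0.0798 RPKM in shRNA-NC and 1.93 ± 0.0772 RPKM in shRNA-UBC9 (SD, n = 3 each), which puts the ratio of the pair 1.10 ± 0.15 (SE) higher on the log2 scale in shRNA-UBC9. FOXD1, a forkhead transcription factor gene, rose from 3.53 ± 0.622 to 8.85 ± 2.41 RPKM (SD, n = 3 each), by 1.29 ± 0.20 on the log2 scale (SE, adjusted p = 0.00193). FOXD1-AS1, all of whose exonic length overlaps FOXD1, was listed at 0 in 1 sample of each group and ranged up to 0.558 RPKM in shRNA-NC and 1.25 RPKM in shRNA-UBC9, with an SE of 0.99 on its log2 fold change of 0.82 (adjusted p = 0.545). FOXN3, another forkhead gene, fell from 5.53 ± 0.388 to 2.6 ± 0.657 RPKM (SD, n = 3 each), by 1.09 ± 0.17 (SE) on the log2 scale (adjusted p = 0.00187), with FOXN3-AS1 at 0.831 ± 0.242 and 0.768 ± 0.302 RPKM (adjusted p = 0.772), and it was named after its values were seen. NNT, the mitochondrial transhydrogenase gene, fell by 0.71 ± 0.12 (SE, adjusted p = 0.00244) while NNT-AS1, whose start is 4 bases from that of NNT, was at 2.98 ± 0.144 and 2.87 ± 0.464 RPKM (SD, n = 3 each, adjusted p = 0.733 from limma).

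In the other direction, some antisense RNAs rose beside partners that did not pass the test or, for DLGAP1-AS2, beside a partner that was not tested. SCAMP1-AS1 was at 2.79, 3.17 and 3.0 RPKM in shRNA-NC and at 5.45, 5.27 and 4.39 RPKM in shRNA-UBC9, which gives a log2 fold change of 0.73 ± 0.11 (SE, adjusted p = 0.00198). SCAMP1, a secretory carrier membrane protein gene, was at 13.3 ± 1.81 and 13.2 ± 1.08 RPKM (SD, n = 3 each, adjusted p = 0.978 from limma). The log2 ratio of the pair did not overlap between groups and was 0.74 ± 0.10 (SE) higher in shRNA-UBC9, and their exons do not overlap. RAB11B-AS1 rose from 1.07 ± 0.124 to 2.25 ± 0.48 RPKM (SD, n = 3 each), by 0.99 ± 0.18 on the log2 scale (SE, adjusted p = 0.00381), with an exonic overlap of 12.5%, beside RAB11B, an endosome recycling GTPase gene, with a log2 fold change of -0.32 ± 0.12 (SE, adjusted p = 0.0645). CARD8-AS1 rose by 0.84 ± 0.13 (SE, adjusted p = 0.00228), with CARD8, an inflammasome gene, at 0.12 ± 0.14 (SE, adjusted p = 0.552), and UBA6-AS1 rose by 0.77 ± 0.17 (SE, adjusted p = 0.00949), with UBA6, a ubiquitin-activating enzyme gene, at 0.23 ± 0.15 (SE, adjusted p = 0.255). DLGAP1-AS2 rose from 6.36 ± 0.92 to 10.8 ± 1.42 RPKM (SD, n = 3 each, log2 fold change 0.75, adjusted p = 0.00415 from limma), while DLGAP1-AS1, inside the same gene, was at 2.76 ± 0.406 and 2.76 ± 0.234 RPKM (SD, n = 3 each, adjusted p = 0.96 from limma). DLGAP1 itself was below the expression filter, with a mean of 0.0399 RPKM over the 6 samples, and was not tested. PTOV1-AS1 and PTOV1-AS2, the other members with a common partner, had adjusted p of 0.496 and 0.856. These antisense RNAs, other than those in pairs shown with promoters or past both thresholds, were named after their values had been seen.

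**Figure D5:**
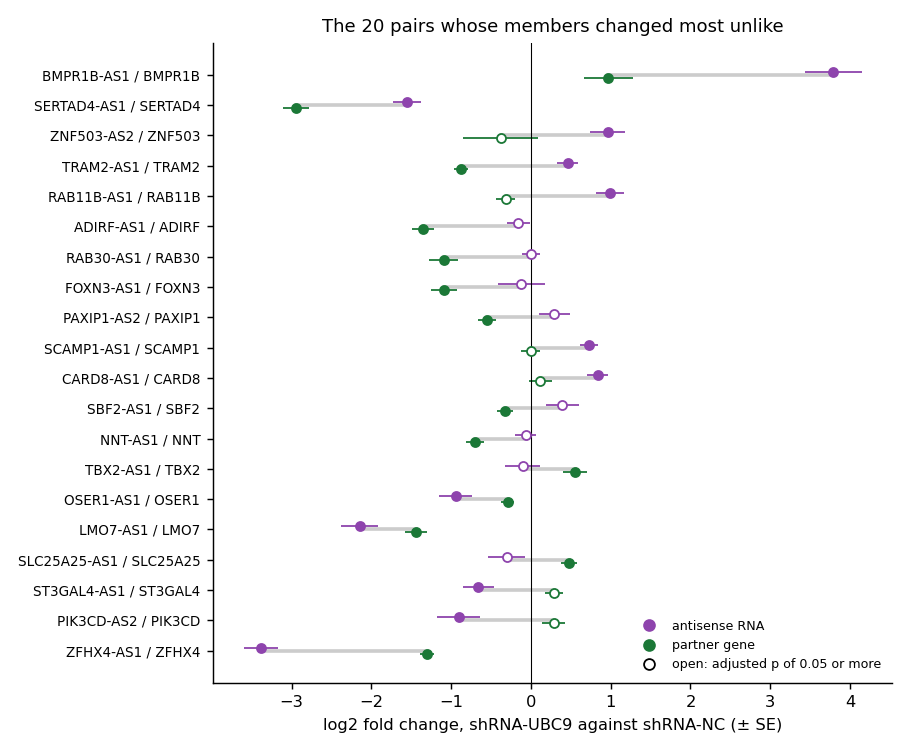
The log2 fold change (± SE) of antisense RNA (purple) and partner gene (green) for the 20 pairs with the largest difference between both changes among pairs with at least 1 gene at an adjusted p below 0.05 (limma); open points did not pass. BMPR1B-AS1 rose more than BMPR1B, ZFHX4-AS1 fell more than ZFHX4, and the points of TRAM2-AS1 and TRAM2 lie on opposite sides of 0.

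In 59 of the 135 pairs (43.7%) the log2 ratio of antisense RNA to partner did not overlap between the groups, below the 51.1% of all tested genes whose own levels did not, with the ratio higher in shRNA-UBC9 in 33 and lower in 26. Its median change in size was 0.325 on the log2 scale, and it was above 1 in 9 pairs.

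Of 55 antisense RNAs listed as well studied in cancer or development, 51 were in the files and 24 were members. PSMB8-AS1 rose, 5 fell, among them ATP2A1-AS1, HOXB-AS3, HOXC-AS1 and TMPO-AS1, and 18 did not pass the test, and the median log2 fold change was -0.27, against 0.005 over all tested genes. ATP2A1-AS1 fell from 4.43, 5.25 and 5.07 RPKM to 2.85, 2.63 and 3.65 RPKM (log2 fold change -0.68 ± 0.14 SE, adjusted p = 0.00612), with ATP2A1, a muscle calcium pump gene, at 0.516 RPKM or less and an exonic overlap of 49.1%. OIP5-AS1 was at 8.32 ± 0.984 against 6.48 ± 0.779 RPKM (SD, n = 3 each, adjusted p = 0.0534 from limma), and 0.0336 without shRNA-UBC9 replicate 1. THAP9-AS1 was at 7.75 ± 0.718 against 6.42 ± 0.369 RPKM (SD, n = 3 each, adjusted p = 0.071 from limma), and 0.0401 without shRNA-NC replicate 1. FGD5-AS1 was at 29.6 ± 1.51 and 27.0 ± 1.51 RPKM (SD, n = 3 each, adjusted p = 0.243 from limma). ZEB1-AS1, beside the gene of a mesenchymal transcription factor, was at 0.658 ± 0.231 and 0.718 ± 0.0745 RPKM (SD, n = 3 each, adjusted p = 0.657 from limma), and GATA3-AS1 at 0.771 ± 0.304 and 0.509 ± 0.0693 RPKM (adjusted p = 0.197), while GATA3, a urothelial transcription factor gene, was lower, with a log2 fold change of -0.79 ± 0.20 (SE, adjusted p = 0.016).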

How the data were processed

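The labels give RNA-seq of polyA RNA from T24 cells, with 3 shRNA-NC and 3 shRNA-UBC9 samples, prepared with a TruSeq RNA kit. Adaptor trimming and mapping to GRCh38 were done by the authors in CLC Biomedical Genomics Workbench 4 with default settings, and the deposited values are RPKM per gene. The annotation release, the strand setting and the handling of reads with several matches are not given in the sources used here.

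Members and gene lists were chosen with earlier results of these data known. The 12428 genes that reached 0.5 RPKM in 3 or more of 6 samples were fitted together as log2(RPKM + 0.1) in limma 3.58.1 (R 4.3.3; lmFit, eBayes with an intensity trend), and adjusted by Benjamini-Hochberg. Fold changes refer to this scale, on which low genes change less than in RPKM. A gene was called at an adjusted p below 0.05. Positive values are higher in shRNA-UBC9. Ratios of pairs were compared by exact permutation of samples, and correlations across pairs were not tested.

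Whole reads were recovered from the RPKM steps (within 0.01 of a whole number for 100% of tested genes), giving 28219032 to 36058872 mapped reads per sample. They served for depth, for the limit of 3 reads behind a 0 and for limma voom, an alternative chosen after seeing the data. Reads are not molecules, so that limit covers counting error only.

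Genes named were the antisense RNAs past both thresholds with their partners, the 10 partners with the largest changes past both thresholds with their antisense RNAs, the 8 highest members, the expressed well-studied members and the neighbours of the expression threshold; others were named after their values were seen. A few results that fall under this rule are not reported here. Positions and exonic overlaps came from GENCODE 44, promoters and synonyms from RefSeq. On simulated data for the comparison of shRNA-UBC9 with shRNA-NC over 12428 genes, the fit called 83% of 100 genes given a log2 change of 1, 98% of 100 given a change of 2, and 3 genes given none. Alternatives were other pseudocounts, filters, scalings, thresholds, no trend, a replicate block and leaving out each sample. Python 3.11.15, numpy 2.4.6, pandas 2.3.3, scipy 1.17.1 and matplotlib 3.10.9 were used.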

Additional observations from a re-analysis of the deposited data

How the results depend on the processing

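Of the 45 called antisense RNAs, 27 were called in every one of the 15 alternative fits that could test them, 18 lost the call in at least 1, and none changed sign. Requiring an RPKM of at least 1 in every sample left 70 members, of which 19 (27.1%, against 37.8% of all genes then tested) were called (12 up and 7 down), with 19 partners of theirs (9 up and 10 down) and an r of 0.474 across 49 pairs, 28 of them of the same sign. A |log2 fold change| above 1 left 13 members (6 up and 7 down, 7.88%) and 11 partners (4 up and 7 down, 8.21%), against 7.89% of all tested genes. An unadjusted limma p below 0.05 gave 66 members (40.0%, 35 up). The share of all tested genes there was not taken, but is at least the 36.8% that passed the adjusted p. The 48 members without exonic overlap held 13 called (7 up and 6 down), against 36.8% of all tested genes. Their pairs had r = 0.602 and the same sign in 24 of 39. With no filter on low values 32 members (19.4%) were called, of which 14 fell, against 17.7% of all 22896 genes above 0. There r was 0.611, with a pseudocount of 0.01 r was 0.596, and with quantile normalization r was 0.615. Quantile normalization gave 21 members up and 31 down (31.5%) and 15 partners up and 32 down (35.1%), against 38.0% of all tested genes. Median scaling gave 17 partners up and 31 down, with 37.2% of all tested genes called. The main fit gave 22 partners up and 25 down. Over all tested genes the median log2 fold change was -0.043 with quantile normalization and -0.037 with median scaling, against 0.005. Leaving out each sample gave 29 to 46 members (16 to 26 up and 12 to 22 down), 29 to 49 partners (12 to 21 up and 17 to 28 down), 80 to 91 pairs of the same sign and r of 0.597 to 0.674, while 3034 to 4183 of all 12428 tested genes were called (24.4% to 33.7%). The fewest came without shRNA-UBC9 replicate 2 for members (13 down) and without shRNA-NC replicate 3 for partners, and 14 members fell without shRNA-NC replicate 1, 12 without shRNA-NC replicate 3. Limma voom on recovered reads, chosen after seeing the data, called 46 members (27.9%, against 37.1% of all tested genes), 40 of them among the 45. The cause of these shifts was not tested.

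The labels number both groups 1 to 3. Same-numbered samples deviated from their group means with correlations of -0.367, 0.073 and -0.17. The largest correlation, 0.526, was between shRNA-NC replicate 1 and shRNA-UBC9 replicate 3. Deviations from a mean of 3 samples are tied to each other, so these values cannot tell whether samples shared a batch. With a replicate block, 37 members were called (20 up and 17 down, all 37 among the 45), 34 partners (14 up and 20 down) and 3374 of all tested genes against 4576. With 28219032 to 36058872 mapped reads per sample, the rarest members rested on few reads (34 over 6 samples at the least), so changes of low members could go undetected.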

Other observations

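A further 527 antisense RNAs were above 0 but below the expression filter. With every gene above 0 tested (22896 genes, 4054 or 17.7% called), 28 of these 527 passed an adjusted p of 0.05 in limma. That is a smaller share than among all genes in the same fit. In shRNA-UBC9, 16 were higher and 12 lower. Of the 28, 16 had a |log2 fold change| above 1, a count that was not taken over all genes. The RNAs that follow were named after their values had been seen. GDNF-AS1, beside the gene of a neurotrophic factor, was at 0.014, 0.006 and 0.009 RPKM in shRNA-NC and at 0.441, 0.27 and 0.273 RPKM in shRNA-UBC9 (adjusted p = 0.00222). HIF1A-AS2, at the gene of the hypoxia-inducible factor HIF1A, was listed at 0, 0.054 and 0 RPKM in shRNA-NC and at 0.832, 0.266 and 0.199 RPKM in shRNA-UBC9, on 25 reads in all (adjusted p = 0.025). DIRC3-AS1 was at 0.361, 0.933 and 0.69 RPKM in shRNA-NC and at 0, 0 and 0.064 RPKM in shRNA-UBC9, on 38 reads in all (adjusted p = 0.00533). HOXA-AS2, of the HOXA cluster, was at 0.419, 0.495 and 0.524 RPKM against 0.196, 0.206 and 0.114 RPKM on 322 reads (adjusted p = 0.0176). For each of these 4 RNAs, all values of 1 group lay above all values of the other. They were picked from RNAs that had passed the test, so this adds no support. The same held for 51.1% of the 12428 tested genes.

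Among members, APCDD1L-AS1 had the largest log2 fold change that did not pass the test, 1.60 ± 0.61 (SE, adjusted p = 0.0716 from limma), with 0.4, 0.0292 and 0.568 RPKM in shRNA-NC and 0.517, 1.5 and 1.13 RPKM in shRNA-UBC9. VIM-AS1 had the partner with the highest level, vimentin, at a mean of 417 RPKM against 1.29 RPKM for the antisense RNA, and the groups of VIM-AS1 overlapped.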
